A study of Homo sapiens with 4 samples.

Results

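The replication-dependent histone genes code for the bulk of the linker histone H1 and of the core histones H2A, H2B, H3 and H4, and were followed here in 2 human prostate cancer lines with and without morusin, a prenylated flavone of mulberry root bark. They were taken as every gene row whose Ensembl ID carries the symbol H1-1 to H1-6 or a numbered symbol beginning H2AC, H2BC, H3C or H4C. This gave 70 of 60617 genes: 6 of type H1, 17 of H2A, 19 of H2B, 13 of H3 and 15 of H4. Current symbols found 68 of them, and H2AC18 and H2AC19 were found through their older symbols HIST2H2AA3 and HIST2H2AA4. The 4 libraries were untreated 22Rv1, 22Rv1 with 75 µM morusin, untreated PC3 and PC3 with 46 µM morusin, all at 6 h. 22Rv1 is an established line from a prostate carcinoma xenograft and was grown in RPMI medium, and PC3 is an established line from a bone metastasis and was grown in F12 medium. Dose and medium therefore cannot be told apart from the line. With 1 library per group, a difference within a line has no replicate check and is given as a value without a test.

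These genes are transcribed mainly in S phase, when newly copied DNA needs histones. Their mRNAs are unlike other mRNAs of animal cells: most have no introns and end not in a poly(A) tail but in a short conserved stem-loop, which the protein SLBP binds and next to which the pre-mRNA is cut with the help of the U7 small nuclear RNA. When DNA synthesis stops, these mRNAs are degraded. Some of the same genes also give longer, polyadenylated transcripts that run past the stem-loop. The libraries were made with the TruSeq RNA v2 kit, which selects polyadenylated RNA, so the levels given here are those of RNA that passed this step and are not levels of all histone mRNA in the cells.

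The stem-loops show what separates these transcripts at their 3′ end. The pattern searched has 16 letters (GG, any 2 bases, CT, any base, TT, any base, AG, any 2 bases, CC) and was read on the sense strand of GENCODE 29 transcripts. It was found in 30 of the 70 genes, against 180 of 58676 genes in all (0.307%). None of the 32 histone genes whose annotated model is the coding sequence alone holds it, since those models stop before it, and 30 of the other 38 do. Here 1 example of each version is shown, 5′ to 3′ on the sense strand, with the stem-loop in capitals and 5 bases on each side. The positions are on GRCh38: H2AC18 at chr1:149842218-149842243 on the minus strand, H2BC4 at chr6:26123467-26123492 on the minus strand, H2AC11 at chr6:27133510-27133535 on the plus strand, H4C8 at chr6:26285126-26285151 on the minus strand and H4C14 at chr1:149833027-149833052 on the plus strand.
H2AC18: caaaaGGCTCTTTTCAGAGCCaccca
H2BC4: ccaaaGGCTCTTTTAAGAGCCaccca
H2AC11: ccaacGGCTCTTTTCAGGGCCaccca
H4C8: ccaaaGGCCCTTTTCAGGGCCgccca
H4C14: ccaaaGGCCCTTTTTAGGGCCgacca
The version of H2AC18 stands in 17 genes of types H2A, H2B and H3, and that of H2BC4 in 4 genes of H2B and H3. The versions of H4C8 and H4C14, with 5 and 3 genes, were found in H4 genes alone. The version of H2AC11 was found in that gene alone. In 22 genes an annotated transcript runs more than 100 bases past the stem-loop, and in 23 an annotated transcript has a poly(A) signal (AATAAA or ATTAAA) in its last 50 bases.

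The sequences before the starts are shown because genes of these types share an S phase programme. A link between these sequences and the changes with morusin was not tested. RefSeq (GRCh38.p14) gave a promoter for 64 of the 70 genes, and 4 are printed, from types H1, H2B, H2A and H4. Each is the 150 bases before the start, 5′ to 3′ on the strand of its gene, and capitals mark the motifs searched on both strands: the TATA box TATAAA, the CCAAT box (read as its complement ATTGG on the other strand), the octamer ATTTGCAT bound by OCT1, and AAACACA, known from H1 promoters and called the H1 box here. The promoter of H1-5 lies at chr6:27867589-27867738 and that of H2BC12 at chr6:27146859-27147008, that of H2AC18 lies at chr1:149842751-149842900, all on the minus strand, and that of H4C14 at chr1:149832507-149832656 on the plus strand.
H1-5: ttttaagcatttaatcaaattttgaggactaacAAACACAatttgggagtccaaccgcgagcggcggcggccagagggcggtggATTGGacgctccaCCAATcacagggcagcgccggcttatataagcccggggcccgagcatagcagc
H2BC12: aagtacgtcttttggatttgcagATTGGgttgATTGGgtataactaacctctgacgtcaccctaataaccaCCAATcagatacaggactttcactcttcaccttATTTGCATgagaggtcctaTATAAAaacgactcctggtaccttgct
H2AC18: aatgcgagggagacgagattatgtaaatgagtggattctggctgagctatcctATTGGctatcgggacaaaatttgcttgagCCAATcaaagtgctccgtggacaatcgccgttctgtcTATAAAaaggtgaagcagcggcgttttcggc
H4C14: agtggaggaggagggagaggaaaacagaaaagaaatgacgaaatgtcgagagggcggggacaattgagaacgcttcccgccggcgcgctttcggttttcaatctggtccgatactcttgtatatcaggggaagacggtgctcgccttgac
In these windows H1-5 has the AAACACA motif and CCAAT boxes, H2BC12 has the octamer, a TATA box and CCAAT boxes, H2AC18 has a TATA box and CCAAT boxes, and H4C14 has none of the 4 motifs. Over the 250 bases before the start, TATAAA was found in 65.6% of the 64 histone promoters against 11.1% of 27305 promoters in all, and CCAAT in 84.4% against 33%. CCAAT was in all promoters of types H1, H2A, H2B and H3 that were in the table, and in 23.1% of those of H4. The octamer was in 77.8% of H2B and 68.8% of H2A promoters, in 9.09% of those of H3 and in none of H1 or H4, against 1.66% of all promoters. AAACACA was in all 6 H1 promoters, in no promoter of the other types and in 4.95% of all promoters. The 1 H3 promoter with the octamer, that of H3C4, is the same stretch as that of H2AC7 and so is not a separate H3 match. The searched windows of neighbouring H2A and H2B genes overlap in part, so these types do not give separate counts. A match is a run of letters and no evidence of binding.

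**Figure D1:**
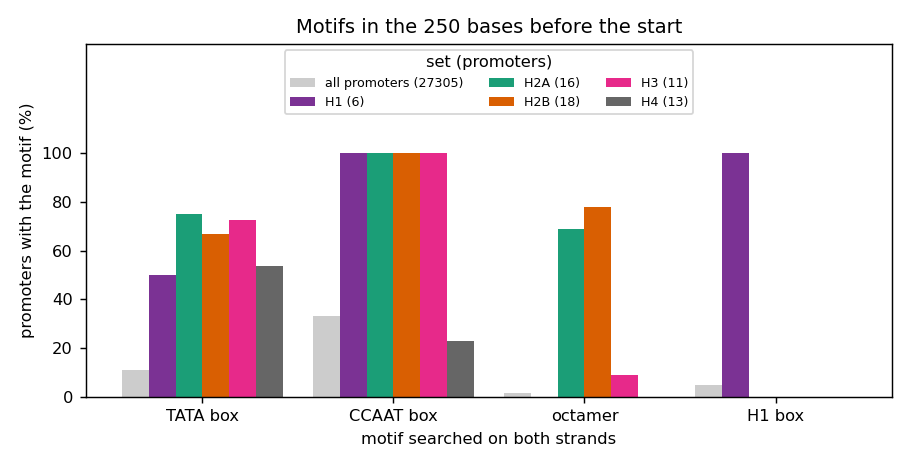
Share of promoters (%, y axis) that hold each of 4 motifs (x axis) in the 250 bases before the start, for all promoters (grey) and for the 5 histone types (colours, number of promoters in the key). CCAAT reaches 100% in 4 types and 23.1% in H4, the octamer is high in H2A and H2B, and AAACACA is at 100% in H1 and at 0 in the other types.

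On the genome the genes form 2 main groups. On chromosome 6, 55 of them lie between 25726132 and 27893843, in stretches of 34 and 21 genes, and 11 lie on chromosome 1 between 149782689 and 149887916. Another 2 stand at 228456979 to 228460470 on chromosome 1, and chromosomes 12 and 21 hold 1 each (GENCODE 29, GRCh38). Within these groups, 12 pairs of neighbours point away from each other with 219 to 357 bases between their starts; 11 pair an H2A with an H2B gene.

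The 4 libraries came to about 23.4, 19.1, 40.6 and 28.6 M read pairs (M, mega), in the order given above, as estimated from the steps between low values. Expression is in FPKM, fragments per kilobase of transcript and per total mapped fragments, so that levels can be compared between genes. A gene of 400 bases, about the length of many histone models, at 1 FPKM rests on 7.63 to 16.2 read pairs. Marker genes were read as a check on the lines. The prostate luminal gene KLK4 was at 288 and 429 FPKM in untreated and treated 22Rv1 and at 0.0173 and 0 FPKM in PC3. Of the 8 luminal genes, 7 were at least 2-fold higher in untreated 22Rv1 than in untreated PC3, as FPKM + 1. HOXB13 went the other way, at 86.5 and 67 FPKM in untreated and treated 22Rv1 and at 175 and 100 FPKM in PC3. The epithelial keratin gene KRT8 was at 107 to 137 FPKM in all 4 libraries. Of the 4 epithelial genes, EPCAM and CDH1 were at least 2-fold higher in untreated 22Rv1, and 0 in untreated PC3. CDH1 was at 86.3 and 64.5 FPKM in untreated and treated 22Rv1 and at 0.19 and 0.144 FPKM in PC3. Of the markers of other cell types, the summed leukocyte list was at 0.660 and 0.464 FPKM in 22Rv1 and at 26.1 and 39.9 FPKM in PC3, nearly all of it CD68, with the defining marker PTPRC at 0.052 FPKM or less in all 4 libraries and CD3E at 0 in PC3. The fibroblast list summed to 1.43 to 3.01 FPKM and the endothelial list to 0 to 1.07 FPKM, with VWF and CDH5 at 0 throughout. Fewer cells of a type and less RNA per cell cannot be told apart in such bulk samples.

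Histone RNA was scarce in all 4 libraries and higher in the treated library of each line. The 70 genes summed to 38.4 FPKM in untreated and 133 FPKM in treated 22Rv1, a ratio of 3.46. In PC3 the sums were 130 and 224 FPKM, a ratio of 1.73. These sums were 0.0108% and 0.0325% of all FPKM in 22Rv1, and 0.0386% and 0.0625% in PC3. Untreated 22Rv1 stood apart as the lowest library, and treated 22Rv1 reached about the sum of untreated PC3. In 22Rv1 the number of genes at 1 FPKM or more went from 8 to 33, and the number listed at 0 from 20 to 11. In PC3 it went from 19 to 31 at 1 FPKM or more, and 12 were listed at 0 in each library. The 5 most abundant genes held 57.1% and 37.9% of the sum in untreated and treated 22Rv1, and 62.5% and 53.6% in PC3, so the RNA was spread over more genes in the treated libraries.

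Every histone type had a higher sum with morusin in both lines. H1 went from 2.09 to 15.1 FPKM in 22Rv1 and from 19.7 to 41.6 FPKM in PC3. H2A went from 19.4 to 57.9 FPKM in 22Rv1 and from 29.97 to 62.0 FPKM in PC3. H2B went from 11.7 to 30.8 FPKM in 22Rv1 and from 62.3 to 90.3 FPKM in PC3. In 22Rv1, H2A was the largest type, and in PC3 it was H2B with or without morusin. H3 went from 1.97 to 15.8 FPKM in 22Rv1 and from 4.18 to 7.48 FPKM in PC3. H4 went from 3.22 to 13.3 FPKM in 22Rv1 and from 13.5 to 22.8 FPKM in PC3. The ratio of the sums was 8.02 for H3, 7.23 for H1, 4.13 for H4, 2.98 for H2A and 2.64 for H2B in 22Rv1. In PC3 the types lay closer together, from 1.45 for H2B to 2.11 for H1.

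**Figure D2:**
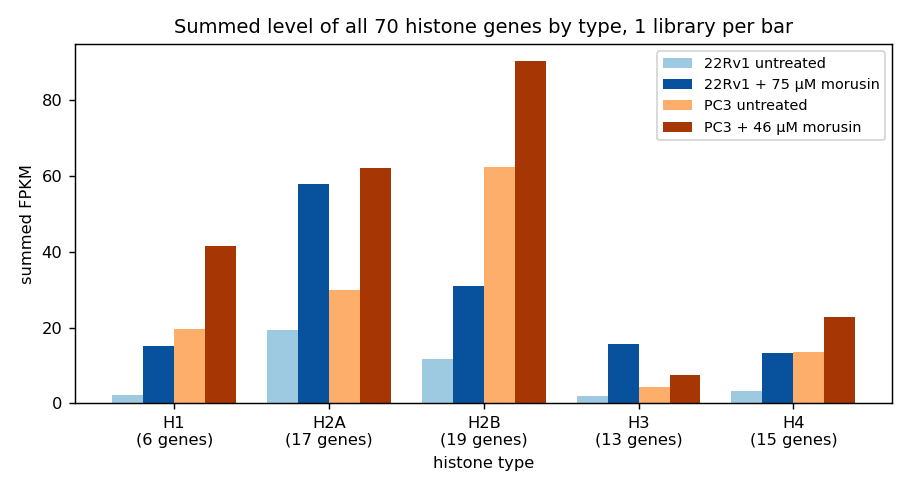
Summed FPKM (y axis, linear from 0) of all 70 histone genes by histone type (x axis), 1 bar per library and so without error bars. The treated bar is the higher of its line in each of the 5 types, and H2B in PC3 is the tallest pair at 62.3 and 90.3 FPKM.

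Changes of single genes are log2 of (treated FPKM + 1) over (untreated FPKM + 1), a scale that understates the change of low genes, and were read only for genes with a mean of at least 1 FPKM over the 4 libraries. Of the 70 genes, 30 reached that mean: 3 of H1, 11 of H2A, 8 of H2B, 3 of H3 and 5 of H4. A gene that reached it through 1 high library had to differ, so the counts that follow describe those 30 and support no statement on the whole family. In 22Rv1, 15 of the 30 were at least 2-fold higher with morusin, where 2.89% of 13407 genes were, and 0 were at least 2-fold lower, where 0.962% were. The median log2 change of the 30 was 1.0, against -0.01 over all genes. In PC3, 7 of the 30 were at least 2-fold higher, where 1.02% of all genes were, and 0 were lower, where 2.45% were. Their median was 0.58, against -0.04 over all genes. Genes such as H1-5 and H3C13 passed the filter only through treated 22Rv1, and H2AC8 only through treated PC3. These shares are therefore descriptions and not an excess over all genes. With no filter on level, 56 of the 70 genes were higher with morusin in 22Rv1, 3 were lower and 11 were listed at 0 in both libraries, and in PC3 the counts were 48, 12 and 10. Of all genes above 0 in at least 1 library of the line, 52.2% were higher in 22Rv1 and 42.8% in PC3.

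FPKM is relative to each library's total, and the sum of all FPKM was itself larger in treated than in untreated 22Rv1 (408628 against 356195). With all libraries brought to the same sum, the median of all genes moved to -0.16 in 22Rv1 and -0.12 in PC3, and the genes past 2-fold in 22Rv1 went from 387 higher and 129 lower to 199 higher and 343 lower. Of the 28 histone genes that then passed the filter, 28 stayed above 0 in 22Rv1, with 8 at least 2-fold higher, and 24 in PC3, with 6. Low values limit the counts too. In untreated 22Rv1, 16 of the 30 genes rested on fewer than 10 estimated read pairs.

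Linker histones H1 bind the DNA between nucleosomes, and 3 of the 6 were measurable. H1-5 was at 0.256 FPKM in untreated and 5.56 FPKM in treated 22Rv1, and listed at 0 in both PC3 libraries. Its log2 change in 22Rv1, 2.38, was the largest of the 30 genes, and it rested on an estimated 4.08 and 72.2 read pairs. H1-4 was at 0.203 and 5.11 FPKM in untreated and treated 22Rv1 and at 0.533 and 1.81 FPKM in PC3, higher with morusin in both. H1-2 was at 1.63 and 4.46 FPKM in untreated and treated 22Rv1 and at 18.8 and 37.7 FPKM in PC3. It was the second most abundant histone gene of PC3, and both PC3 values stood far above those of 22Rv1. Among the other genes of the type, H1-3 was at 0 in both 22Rv1 libraries and at 0.384 and 1.97 FPKM in PC3, and H1-1 and H1-6, the latter a testis histone, were at 0.106 FPKM or less.

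Core histone H2A forms a dimer with H2B in the nucleosome, and its 17 genes gave all 4 histone genes that passed a test over both lines. The test was a limma fit of the log values on treatment, with the line as a block, and the spread was taken from 1 residual degree of freedom and a prior shared by all genes. After Benjamini-Hochberg adjustment over 13407 genes it called 4 of the 30 histone genes higher, where it called 0.313% of all genes higher, and 0 lower, where it called 0.246%. At an unadjusted p under 0.05, 25 of the 30 were higher and 0 lower, where 8.02% and 11% of all genes were. The 25 include genes such as H1-5 and H3C13 that passed the filter only through treated 22Rv1 and had to be higher there. The 4 include H2AC8, which passed only through treated PC3, and H2AC14, which passed only through its treated libraries. Both counts are therefore descriptions and not an excess over all genes. H2AC18 was at 1.70 and 7.50 FPKM in untreated and treated 22Rv1 and at 2.96 and 11.1 FPKM in PC3. Its fitted log2 change was 1.63 ± 0.21 (SE; limma, adjusted p = 0.00937, higher in 2 of 2 lines). H2AC19 was at 1.66 and 7.18 FPKM in untreated and treated 22Rv1 and at 2.86 and 10.9 FPKM in PC3 (log2 change 1.62 ± 0.21, limma adjusted p = 0.00948). The pair are near-identical copies on opposite strands of chromosome 1: all 150-base windows of H2AC18 and 96.4% of those of H2AC19 occur in the other, so how reads were split between them is uncertain and they do not count as separate observations.

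H2AC14, at 0.318 and 1.96 FPKM in untreated and treated 22Rv1 and 0.337 and 2.21 FPKM in PC3, had a log2 change of 1.22 ± 0.20 (limma, adjusted p = 0.0356). Of its windows, 76.9% occur in H2AC13, and it too is uncertain for that reason. H2AC14 also passed the filter only through its treated libraries and had to be higher with morusin, so its adjusted p is a description. H2AC8 was at 0.197 and 1.48 FPKM in untreated and treated 22Rv1 and at 1.18 and 4.83 FPKM in PC3 (log2 change 1.23 ± 0.21, limma adjusted p = 0.0433). It shares no window with another gene, and rested on 2.35 and 14.4 estimated pairs in 22Rv1. Both of its treated values lay above both untreated ones. These adjusted p-values assume that the spread of other genes holds for histone genes with few reads. Over the settings tried, the adjusted p ranged from 3.23e-06 to 1 for H2AC18, from 3.63e-06 to 1 for H2AC19, from 0.00029 to 1 for H2AC14 and from 0.000351 to 1 for H2AC8, in each case with the value of 1 where the line was left out of the fit.

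Other H2A genes moved less evenly. H2AC20, the leading histone gene of treated 22Rv1, was at 6.04 and 14.6 FPKM in untreated and treated 22Rv1 and at 1.29 and 3.95 FPKM in PC3, at least 2-fold higher in both lines. H2AC12 was at 0.0827 and 3.6 FPKM in untreated and treated 22Rv1 and at 0.153 and 0.444 FPKM in PC3. H2AC17 was at 0.475 and 3.98 FPKM in untreated and treated 22Rv1 and at 0.753 and 1.27 FPKM in PC3. H2AC12 and H2AC17 differed mainly in 22Rv1, but both passed the filter only through treated 22Rv1 and had to be higher there. H2AC12 rested on an estimated 0.75 and 26.6 read pairs in untreated and treated 22Rv1 and on 2.41 and 4.92 in PC3. The exon of H2AC17 overlaps that of H3C12, so its reads cannot be told from those of its neighbour. H2AC6 was at 0.391 and 0.936 FPKM in untreated and treated 22Rv1 and at 9.50 and 14.6 FPKM in PC3. H2AC25 was at 6.55 and 8.81 FPKM in untreated and treated 22Rv1 and at 6.64 and 8.87 FPKM in PC3. H2AC25 had almost the same level in both lines and a small log2 change of 0.38 in 22Rv1 and 0.37 in PC3; it lies outside the main groups, in the small pair on chromosome 1.

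H2AC13 and H2AC11 were higher with morusin in 22Rv1 and lower in PC3. Of the windows of H2AC13, 51.7% occur in H2AC14, so its values are uncertain too. H2AC13 was at 0.729 and 2.48 FPKM in untreated and treated 22Rv1 and at 1.77 and 1.49 FPKM in PC3. H2AC11 was at 0.516 and 1.09 FPKM in untreated and treated 22Rv1 and at 1.68 and 1.33 FPKM in PC3. The log2 changes in PC3 were -0.15 and -0.20. Without the added 1 the FPKM ratios were 0.844 and 0.792, with counting errors of 0.39 and 0.19 in log2.

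H2B was the most abundant type in PC3, mostly through a single gene. H2BC12 was at 5.97 and 12.3 FPKM in untreated and treated 22Rv1 and at 34.4 and 44.3 FPKM in PC3, the highest level of any histone gene in any library. Its log2 change was 0.93 in 22Rv1 and 0.36 in PC3, below 2-fold in both. H2BC5 was at 1.43 and 2.77 FPKM in untreated and treated 22Rv1 and at 10.8 and 12.5 FPKM in PC3. H2BC4 was at 0.454 and 2.14 FPKM in untreated and treated 22Rv1 and at 7.49 and 10.8 FPKM in PC3. All 3 genes were several times lower in 22Rv1 than in PC3. H2BC21 moved mainly in PC3, at 1.69 and 2.12 FPKM in untreated and treated 22Rv1 against 1.59 and 5.11 FPKM in PC3. H2BC18 was at 0.363 and 2.48 FPKM in untreated and treated 22Rv1 and at 0.429 and 1.73 FPKM in PC3, and shares 10.3% of its windows and part of an exon with other genes. H2BC11 was at 0.091 and 0.736 FPKM in untreated and treated 22Rv1 and at 1.54 and 4.10 FPKM in PC3, and H2BC8 at 0.188 and 0.630 FPKM in 22Rv1 and 2.37 and 4.04 FPKM in PC3. H2BC18 and H2BC13, the latter at 2.62 FPKM, were the 2 of the 8 measured H2B genes that had their highest value in treated 22Rv1. Among H2B genes below the filter, H2BC14 was at 0 and 1.16 FPKM in untreated and treated 22Rv1 and at 0.054 and 1.5 FPKM in PC3.

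H3 and H4, which form the central tetramer of the nucleosome, were the least measured types, with 3 of 13 and 5 of 15 genes above the filter. H3C13 was at 0.476 and 5.89 FPKM in untreated and treated 22Rv1 and at 0.718 and 0.591 FPKM in PC3, so it was high in a single library. H3C2 was at 0.104 and 2.68 FPKM in untreated and treated 22Rv1 and at 0.537 and 0.727 FPKM in PC3. H3C10 was at 0.469 and 1.93 FPKM in untreated and treated 22Rv1 and at 0.791 and 2.33 FPKM in PC3. H3C10 was thus higher with morusin in both lines by similar amounts, 1.0 and 0.89 in log2. H3C13 and H3C2 differed by 2.22 and 1.74 in 22Rv1 and by -0.11 and 0.17 in PC3. H3C10 passed the filter only through its treated libraries and H3C13 and H3C2 only through treated 22Rv1, so each had to be higher there. The contrast between these 3 genes is therefore a description. Whether the lines differ in these responses was not tested, since 1 library per group leaves no residual for it.

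All 5 measured H4 genes were higher with morusin in both lines, none by 2-fold on this scale. With no filter on level, 12 of the 15 H4 genes were higher with morusin in 22Rv1, 1 was lower and 2 were listed at 0 in both libraries. In PC3 these counts were 10, 2 and 3. H4C14 was at 0.748 and 1.67 FPKM in untreated and treated 22Rv1 and at 4.53 and 8.60 FPKM in PC3. H4C15 was at 0.525 and 1.78 FPKM in untreated and treated 22Rv1 and at 2.87 and 5.14 FPKM in PC3. H4C14 shares 92.2% of its windows with H4C15, and their reads may have been split either way. H4C8 was at 0.0530 and 0.576 FPKM in untreated and treated 22Rv1 and at 2.29 and 2.83 FPKM in PC3. H4C11 and H4C12 lay between 0.423 and 1.95 FPKM in all 4 libraries. Neither had an untreated mean of 1 FPKM, so both passed the filter through their treated libraries and had to be higher there on average. H4C11 and H4C12 share 72.8% and 100% of their windows with each other, so the 5 H4 genes are not 5 separate observations. H4C6 and H4C7 were listed at 0 throughout.

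**Figure D3:**
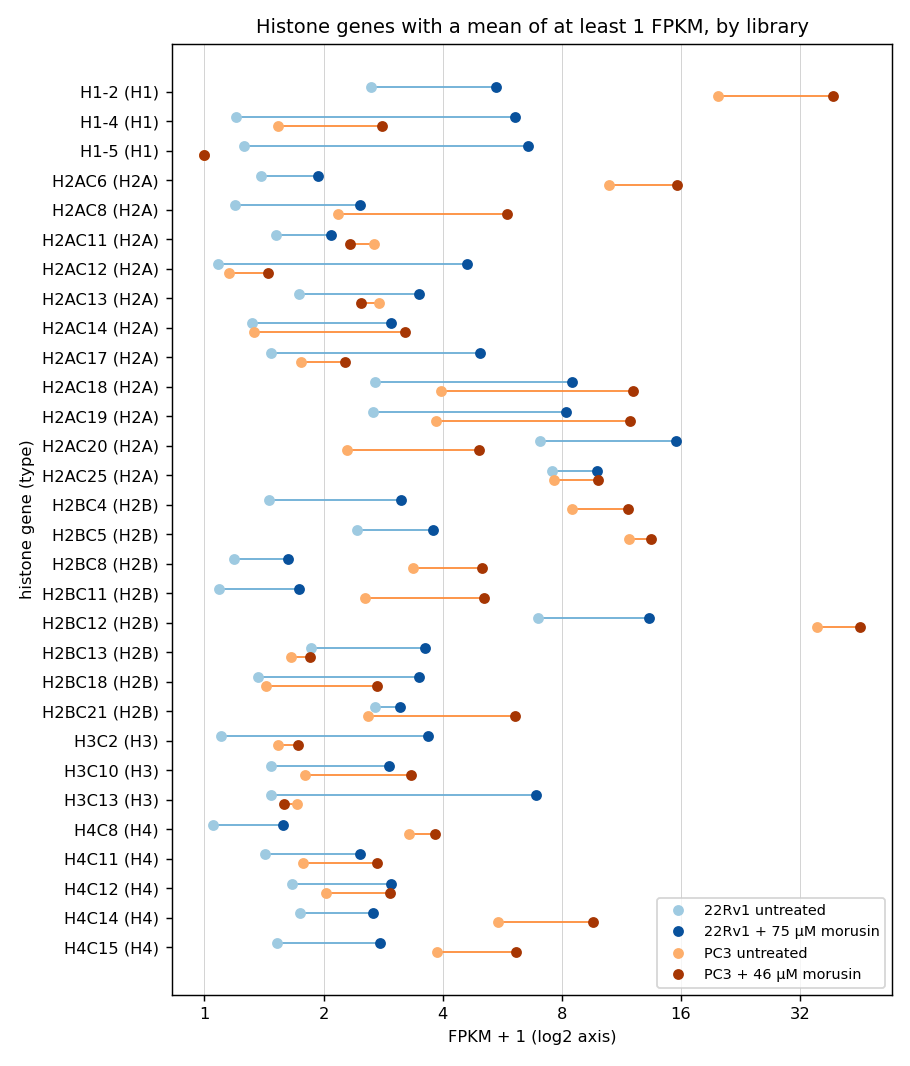
Level of the 30 histone genes with a mean of at least 1 FPKM (y axis, by type) as FPKM + 1 on a log2 axis (x axis), 1 point per library and a line from untreated (light) to treated (dark) for 22Rv1 (blue) and PC3 (orange). All 30 blue pairs run from light to dark to the right, and in PC3 the pairs of H2AC11, H2AC13 and H3C13 run to the left.

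**Figure D4:**
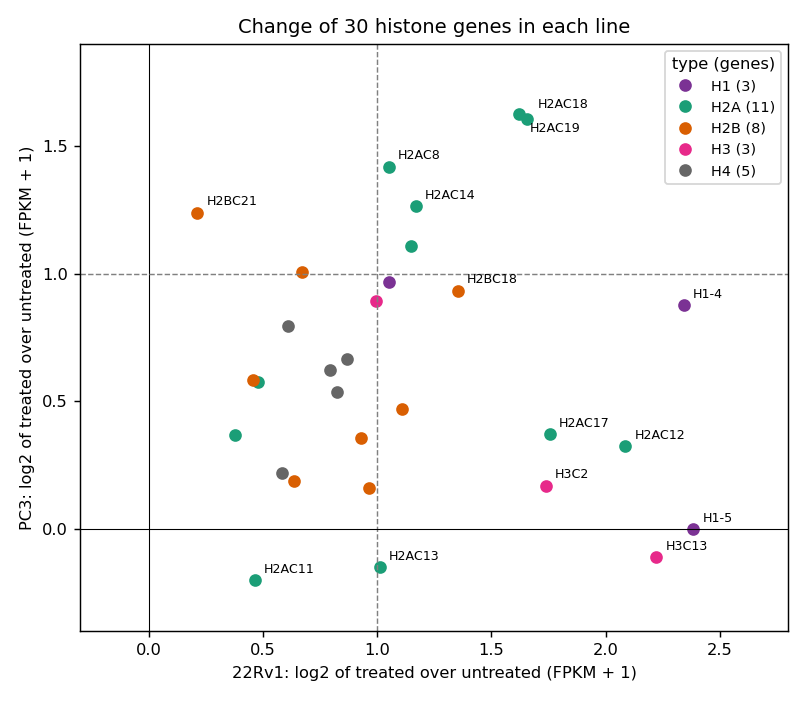
log2 of treated over untreated (FPKM + 1) in 22Rv1 (x axis) and PC3 (y axis), 1 point per histone gene, coloured by type, with dashed lines at 2-fold. H2AC18 and H2AC19 lie highest for both lines together, H1-5, H1-4, H3C13 and H2AC12 lie far to the right, and H2BC21 is past 2-fold in PC3 alone.

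Features of the annotation that the symbols do not carry were set beside the changes over all 70 genes, with no filter on level and genes listed at 0 included. In 22Rv1 the median log2 change was 0.61 for the 23 genes with a poly(A) signal at an annotated end and 0.67 for the 47 without one, so these sets lay close together. In PC3 the medians were 0.37 and 0.16. For the 49 genes whose longest GENCODE 29 transcript is at most 1000 bases the median was 0.82 in 22Rv1 and 0.17 in PC3, and for the 21 genes with a longer one it was 0.48 and 0.26. The 32 genes whose model is the coding sequence alone had medians of 0.75 and 0.13. By position, the 11 genes of the larger group on chromosome 1 had medians of 1.15 in 22Rv1 and 0.80 in PC3, against 0.63 and 0.15 for the 55 on chromosome 6. That group holds the near-identical copies of H2AC18 and H4C14, and none of these splits was tested.

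Genes that share a start region need not have the same level. H2BC12 and H2AC12, with 331 bases between their starts, were at 34.4 and 0.153 FPKM in untreated PC3. In treated 22Rv1 the same genes were at 12.3 and 3.6 FPKM. H2BC21 and H2AC20, with 323 bases between their starts, were at 1.69 and 6.04 FPKM in untreated 22Rv1, and at 1.59 and 1.29 FPKM in untreated PC3. In this pair the H2A gene led in 22Rv1 and the H2B gene in PC3. H2BC4 and H2AC6, 219 bases apart, went together: both were below 0.5 FPKM in untreated 22Rv1 and at 7.49 and 9.50 FPKM in untreated PC3.

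The untreated lines differed in histone RNA. Of the 30 measured genes, 10 exceeded the 2-fold size in favour of PC3, where 18.4% of all genes did, and 1 (H2AC20) in favour of 22Rv1, where 19.1% did. Genes such as H2AC6 and H4C8 passed the filter only through PC3 and had to be higher there. These counts therefore describe the 30 genes and are not an excess over all genes. The median log2 of 22Rv1 over PC3 was -0.50, against 0.10 over all genes. The widest gaps were those of H2AC6 and H1-2, with log2 values of -2.92 and -2.91. Over all 70 genes, 13 were higher in untreated 22Rv1, 48 were higher in untreated PC3 and 9 were listed at 0 in both. Of all genes above 0 in at least 1 of these libraries, 52.1% were higher in untreated 22Rv1. The S phase genes, such as the replication clamp gene PCNA and the helicase gene MCM7, differed the other way, with 13 of 26 at least 2-fold higher in untreated 22Rv1 and a median of 1.03. PCNA was at 239 FPKM in untreated 22Rv1 and 88.2 FPKM in untreated PC3. This comparison uses the same untreated libraries as those with morusin, so a low value in untreated 22Rv1 enters both.

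Genes around histone RNA were taken from 6 lists by role. Few of them were past 2-fold, other than RNAs without a poly(A) tail. The histone variants with polyadenylated mRNA, which are made outside S phase too, had 11 measured members, and 0 were at least 2-fold higher or lower in either line. Their medians were 0.10 in 22Rv1 and 0.21 in PC3, and with equal FPKM sums -0.06 and 0.11. H3-3B, which codes for the replacement histone H3.3, was at 152 and 186 FPKM in untreated and treated 22Rv1 and at 268 and 317 FPKM in PC3. H2AZ1, which codes for H2A.Z, was at 367 and 507 FPKM in untreated and treated 22Rv1 and at 110 and 107 FPKM in PC3. H3-3B alone was above the sum of the 70 replication-dependent genes in each of the 4 libraries.

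Of 26 genes of histone mRNA synthesis and 3′ processing, 0 were past 2-fold in either line. SLBP, the stem-loop binding protein, was at 90.5 and 95.5 FPKM in untreated and treated 22Rv1 and at 25.2 and 24.0 FPKM in PC3. NPAT, which switches on histone transcription downstream of cyclin E and CDK2, was at 4.77 and 3.0 FPKM in untreated and treated 22Rv1 and at 7.30 and 7.14 FPKM in PC3. The U7 gene RNU7-1 was at 0.0137 FPKM or less in all 4 libraries. Since these were selected for polyadenylated RNA, this value is no measure of the U7 RNA in the cells. Of 18 genes of histone mRNA decay, LSM7, of the LSM ring that binds the tails of decaying RNA, was the 1 past 2-fold, at 61.4 and 128 FPKM in untreated and treated 22Rv1, and with equal FPKM sums 0 were higher and 1 was lower. Of 22 histone chaperones, IPO4, an importin that carries H3 and H4, was lower in 22Rv1 at 50.2 and 22.7 FPKM. HIRA and UBN1, of the complex that places H3.3, were lower in PC3, at 12.1 and 4.25 FPKM and at 12.3 and 3.48 FPKM. Of 26 S phase genes, 0 were past 2-fold in either line, with medians of -0.26 in 22Rv1 and 0.28 in PC3, and with equal FPKM sums 1 was lower in 22Rv1.

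The list of RNAs without a poly(A) tail, which holds small nuclear RNAs and other structural RNAs, had a higher sum with morusin in both lines. Of its 28 genes, 27 were found and 11 passed the filter. In treated 22Rv1, 7 of these were at least 2-fold higher, where 2.89% of all genes were. In treated PC3, 5 were, where 1.02% of all genes were. In both lines 0 were lower, where 0.962% and 2.45% of all genes were. The medians of the 11 were 2.55 and 0.95. Copies of the U1 gene such as RNU1-1 passed the filter only through treated 22Rv1 and had to be higher there. These counts and medians therefore describe the 11 genes and are not an excess over all genes. The 27 genes summed to 41.1 and 739 FPKM in untreated and treated 22Rv1 and to 44.8 and 72.9 FPKM in PC3. Of these sums, 5 copies of the U1 gene made up 0.443 and 639.7 FPKM in 22Rv1 and 0.581 and 9.46 FPKM in PC3. Without them the other 22 genes summed to 40.6 and 98.9 FPKM in 22Rv1 and to 44.2 and 63.5 FPKM in PC3. RNU1-1, a gene of the U1 spliceosomal RNA, was at 0.0321 and 161 FPKM in untreated and treated 22Rv1 and at 0.115 and 2.64 FPKM in PC3. RN7SK, which holds back the elongation factor P-TEFb, was at 8.61 and 55.4 FPKM in untreated and treated 22Rv1 and at 5.54 and 14.6 FPKM in PC3 (limma, adjusted p = 0.0311, higher in 2 of 2 lines). RMRP, the RNA of an RNA-cutting enzyme, was at 0.899 and 5.04 FPKM in untreated and treated 22Rv1 and at 1.71 and 3.44 FPKM in PC3. MALAT1, a long nuclear RNA whose end is a triple helix, was the exception in 22Rv1, at 24.4 and 20.3 FPKM, and was at 14.6 and 22.2 FPKM in PC3. The copies of U1 are near-identical, so their reads may be split in any way among them. The summed level of these RNAs thus moved in the direction of the histone genes in both lines, and its part in their change was not tested.

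**Figure D5:**
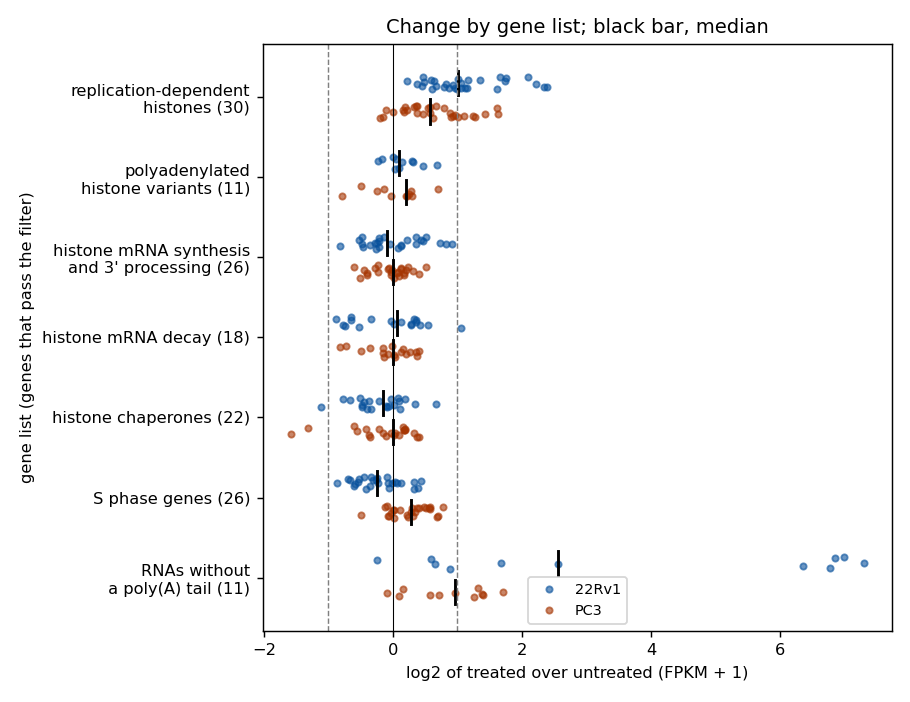
log2 of treated over untreated (FPKM + 1) (x axis) of the measured genes of 7 lists (y axis, number of genes in brackets), in 22Rv1 (blue) and PC3 (brown), with a black bar at the median and dashed lines at 2-fold. The histone genes and the RNAs without a poly(A) tail lie to the right in both lines, with medians of 1.0 and 2.55 in 22Rv1, and the other 5 lists lie around 0. Genes such as H3C13 and RNU1-1 passed the filter only through treated 22Rv1 and had to lie to the right in 22Rv1.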

How the data were processed

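Total RNA of the 4 cultures was extracted with a column kit and sequenced as paired reads of 150 bases, per the labels' protocols. The submitters' processing notes name Trimmomatic, HISAT2 and StringTie with the build GRCh38. Tool versions, annotation release and strand setting: not given in the sources used here. Per Ensembl gene, FPKM values were deposited by the authors, and no counts were used. The histone genes, the lists and the rules were chosen with earlier results of these data known.

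FPKM were taken as log2(FPKM + 1) for genes with a mean of at least 1 FPKM over the 4 libraries, and a size of 2-fold was set for description. limma 3.58.1 (R 4.3.3) with trend fitted line and treatment, with Benjamini-Hochberg adjustment at 0.05. The line pairs the libraries because both libraries of a pair come from the same cell line. On simulated data with a noise SD of 0.25 (13407 genes, both lines together), limma recovered 50 of 50 genes changed by 2 in log2, 50 of 50 by -2, 34 of 50 by 1 and 36 of 50 by -1, with 8 false calls among 13207.

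To estimate depth, low values in genes with 1 exon and 600 to 5000 bases were multiplied by length: the commonest step was taken as 1 read pair (tolerance 1.5%), with 57 to 81 of 1385 to 1706 low values per library at it, so depths are rough. Counting errors cover counting only. Transcripts, lengths and positions came from GENCODE 29, which may differ from the authors' annotation, and promoters from RefSeq. Windows of 150 bases, the read length, were compared between genes. Genes named had 5 FPKM or more in a library, were the 3 highest of their type, the 10 largest rises or 5 largest falls per line, or passed limma; of each list, the 4 highest and those past a threshold; others are named for a feature seen in the data. Not every gene that met the rule is given in the text.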

Additional observations from a re-analysis of the deposited data

Results flagged for a closer look

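A few values had opposite signs in the 2 lines, and none of these differences was tested, since each group holds 1 library. The log2 change (treated over untreated) of H3C13 was 2.22 in 22Rv1 and -0.11 in PC3. That of H2AC13 was 1.01 in 22Rv1 and -0.15 in PC3, and that of H2AC11 was 0.46 in 22Rv1 and -0.20 in PC3. H3C13 passed the filter only through treated 22Rv1 and had to be higher there. Without the added 1 its FPKM ratio in PC3 was 0.823, with a counting error of 0.69 in log2. H2AC13 shares 51.7% of its 150-base windows with H2AC14, which had a log2 change of 1.26 in PC3, so how reads were split between them is uncertain. Among the lists, the median of the S phase genes was -0.26 in 22Rv1 and 0.28 in PC3. The median of the genes of histone mRNA synthesis and 3′ processing was -0.10 in 22Rv1 and 0.0019 in PC3, and that of the histone mRNA decay genes was 0.06 in 22Rv1 and -0.0018 in PC3, so the PC3 values of these lists lie next to 0. With equal FPKM sums the processing medians were -0.28 and -0.09 and the decay medians -0.12 and -0.08, so these no longer had opposite signs.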

How the results depend on the processing

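Of 112 values recomputed under other settings, 78 stayed within 1.5 times those given and 34 moved further. Only the medians could change sign, and no median did. Counts of 0 that stayed at 0 are among the 78. Among the 78, the 22Rv1 median reached 1.46 with a pseudocount of 0.25. With 1 library per group, no library can be left out of a comparison. With a pseudocount of 0.25, 24 histone genes were at least 2-fold higher in treated 22Rv1, and 2 were higher in untreated 22Rv1 than in PC3. With a pseudocount of 5, treated 22Rv1 had 1 and treated PC3 2 at least 2-fold higher, the medians were 0.38 and 0.30, 0 were higher in untreated 22Rv1 and 5 in untreated PC3, and limma called 2 histone genes and 24 of all genes higher. With a filter of 5 FPKM, 9 histone genes were left, with 5 higher in 22Rv1, 3 in PC3 and 5 in untreated PC3, and limma called 68 genes higher and 56 lower. Without a filter the PC3 median was 0.26 and limma called 0 histone genes, 0 genes higher and 0 lower, and with a filter of 0.25 FPKM the median was 0.37 and limma called 21 genes lower. With equal FPKM sums, 8 histone genes were higher in 22Rv1, and limma called 15 histone genes higher, with 313 genes higher and 1273 lower, against 42 and 33 as deposited. With the log values of each library centred on their median, limma called 9 histone genes and 138 genes higher.

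The line as a block pairs the libraries. Without this replicate block, limma called 0 histone genes, 0 genes higher and 0 lower. Alternatives added after seeing the data left out genes that share sequence or exons with another (9 histone genes higher in 22Rv1, 4 in PC3, and 1 called by limma) or the 2 genes found through older symbols (2 called by limma). Depth limits the low values: 54 of 70 histone genes rested on fewer than 10 estimated read pairs in untreated 22Rv1.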
